A study of Homo sapiens with 12 samples.

Results

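The MARK, SIK and related kinases are 10 genes followed here in a human leukaemia line in which the transcription factor MEF2C, wild type or mutant, was placed under doxycycline control. They are MARK1, MARK2, MARK3, MARK4, SIK1, SIK2, SIK3, NUAK1, SNRK and their activating kinase STK11, taken by gene symbol from a table of 55765 genes. All 10 had a row, and 9 of them were among the 11474 genes with enough counts to be tested. MARK1 was not. RNA was sequenced in 12 libraries of OCI-AML2 cells, a line from acute myeloid leukaemia. The libraries form 4 groups of 3: cells with S222A MEF2C, in which a serine is replaced by alanine, given doxycycline (S222A induced) or vehicle (S222A uninduced), and cells with wild-type MEF2C given doxycycline (WT induced) or vehicle (WT uninduced). Cultures of 3 ml had 600 ng doxycycline or vehicle for 48 h, with no volume given for the doxycycline amount. All groups come from single-cell clones, and the labels do not give the number of clones per construct, so a difference between the lines cannot be told apart from a difference between clones. No doxycycline-treated cells lacking a construct were analysed here, so the drug itself and the construct cannot be told apart either. Nothing in the labels says that the 3 libraries of a group are separate cultures, so every p-value measures the spread between these libraries, which may be technical.

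These enzymes belong to the family of kinases related to AMPK. STK11 (also called LKB1), held in a complex with STRAD and CAB39 proteins, phosphorylates their activation loop, and that step, not the RNA level, is what switches most of them on. MARK kinases phosphorylate microtubule-associated proteins and polarity proteins and are known to phosphorylate MEF2C at the serine that the S222A change removes, while SIK kinases phosphorylate class IIa histone deacetylases, the repressive partners of MEF2 factors, and the CRTC coactivators of CREB. 14-3-3 proteins then bind the phosphorylated deacetylases and CRTC coactivators and hold them in the cytoplasm. Cyclic AMP acts through protein kinase A to inhibit SIK proteins and through CREB to raise SIK1 transcription. The values below are RNA levels and say nothing of kinase activity.

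Promoters are shown for the member whose RNA changed (NUAK1), for the member whose levels come next in separating the lines (SNRK) and for the known CREB target (SIK1). Each is 300 bases, 250 of them before the annotated start, from RefSeq on GRCh38.p14 and read on the gene's strand. Capitals mark the CREB half-site, TGACG or its reverse complement CGTCA. The sequences lie at chr12:106138905-106139204 (minus strand) for NUAK1, chr3:43286290-43286589 (plus strand) for SNRK and chr21:43427082-43427381 (minus strand) for SIK1.
NUAK1: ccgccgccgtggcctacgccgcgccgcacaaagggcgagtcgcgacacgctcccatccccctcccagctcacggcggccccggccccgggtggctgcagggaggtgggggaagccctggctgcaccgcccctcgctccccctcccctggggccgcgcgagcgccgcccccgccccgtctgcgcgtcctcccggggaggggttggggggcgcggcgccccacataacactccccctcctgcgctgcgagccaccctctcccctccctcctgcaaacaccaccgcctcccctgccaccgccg
SNRK: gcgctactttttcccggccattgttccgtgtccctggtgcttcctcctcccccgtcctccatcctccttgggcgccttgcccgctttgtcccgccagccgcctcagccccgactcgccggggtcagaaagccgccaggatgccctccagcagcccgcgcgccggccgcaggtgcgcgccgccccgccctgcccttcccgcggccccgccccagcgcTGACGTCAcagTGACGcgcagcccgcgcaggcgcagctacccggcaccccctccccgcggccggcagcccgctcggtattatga
SIK1: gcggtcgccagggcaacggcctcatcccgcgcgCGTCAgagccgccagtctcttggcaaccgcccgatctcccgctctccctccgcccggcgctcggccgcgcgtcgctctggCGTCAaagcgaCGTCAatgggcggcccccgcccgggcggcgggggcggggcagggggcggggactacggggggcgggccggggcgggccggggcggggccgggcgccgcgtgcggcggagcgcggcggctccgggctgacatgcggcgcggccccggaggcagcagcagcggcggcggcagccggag
The table of promoters held 9 of the 10 members, with 10 promoters because MARK2 had a pair of them. The NUAK1 window has no half-site, while SIK1 has 3, at -217, -137 and -126 from the start. SNRK also has 3, of which an overlapping pair forms the full palindrome TGACGTCA. Half-sites were counted on both strands. They occurred in 7 of the 9 members, namely SIK1, SIK2, SIK3, SNRK, STK11, MARK3 and MARK4. By promoter this was 7 of 10, against 24.6% of 35116 promoters of this length. The half-site contains CG, and G and C made up 60 to 82.3% of the bases in the member windows. The share over all promoters was not matched for this. The palindrome occurred only in SNRK among these members, and in 1.85% of all such promoters. No member's window held a MEF2 consensus match, which 2.99% of the promoters had. These are matches of letters, not measured binding.

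Library totals ranged from 875710 to 13134791 counts, and levels are given as CPM, counts per 1e6 counts of the library after scaling with TMM factors. The floor of 3 counts is 0.239 CPM in the deepest library and 3.36 CPM in the shallowest. This floor, like the intervals on single libraries, covers counting error only. The 4 libraries with the highest total in their group, at 5412391 to 13134791 counts, stood apart from the other 8 over 38.4% of all genes tested, and members that follow this split are described with it below. Groups are named by doxycycline treatment. MEF2C stood at 920, 956 and 786 CPM in S222A induced libraries, against 605, 701 and 802 CPM in S222A uninduced libraries. It stood at 674, 844 and 812 CPM in WT induced libraries, against 747, 645 and 817 CPM in WT uninduced libraries. MEF2C RNA was not called on S222A induction (log2 fold change 0.34 ± 0.16 SE, edgeR adjusted p = 0.285). Of 12 myeloid and leukaemia markers 8 were tested. The summed level of the 12 was 995 to 1060 CPM in S222A induced and 875 to 947 CPM in S222A uninduced libraries. It was 892 to 1030 CPM in WT induced and 852 to 1000 CPM in WT uninduced libraries. PTPRC alone had 516 to 760 CPM, and the highest of the other markers was FLT3 at 64.1 to 111 CPM. CEBPA, CSF2RA and IL3RA had no count in any library, and CD34 had 2 counts in all. The annotation and the handling of reads are not stated, so a count of 0 need not mean absent RNA. Of the 8 tested markers only MPO, a granule enzyme of myeloid progenitors, was called on S222A induction, and it fell (log2 -1.71, edgeR adjusted p = 0.0377). Positive values, none called, were those of KIT (log2 2.22, adjusted p = 0.0869), FLT3 (0.49, 0.0588) and PTPRC (0.28, 0.368). CD33 (-0.21), SPI1 (-0.27), CSF3R (-0.3) and CD38 (-0.04) had negative values and were not called. The markers thus did not move in 1 direction, and their part in the results below was not tested. Markers of T cells, red cells and megakaryocytes summed to at most 2.08, 0.223 and 3.03 CPM in any library, those of B cells to 1.12 to 11.6 CPM and those of fibroblasts or epithelium to 13.6 to 38.8 CPM, mostly CDH1. In RNA from whole cultures, fewer cells of a kind and less RNA per cell cannot be told apart.

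NUAK1, a kinase with roles in cell adhesion and in survival under metabolic stress, rose on S222A induction and was the only member called in any comparison. It stood at 72.7, 62.2 and 54.8 CPM in S222A induced libraries, against 32.55, 37.8 and 38.3 CPM in S222A uninduced libraries. The lowest induced library lay above the highest uninduced one, a separation upwards found for 14.4% of all genes tested. The means were 63.2 ± 9.03 CPM in S222A induced and 36.2 ± 3.18 CPM in S222A uninduced libraries (SD, n = 3 each). The fold was 1.76, with a 95% interval of 1.34 to 2.3 (log2 0.81 ± 0.18 SE, edgeR quasi-likelihood, Benjamini-Hochberg adjusted p = 0.0248). Thus 1 of 9 tested members was called, where 4.45% of all genes tested were called in this comparison. The call was lost without any 1 of 4 of the 6 S222A libraries: adjusted p was 0.0991 and 0.071 without uninduced replicates 1 and 2, and 0.111 and 0.0696 without induced replicates 1 and 2.

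In the WT line the levels of NUAK1 were 32.7, 35.9 and 33.95 CPM in induced libraries, against 24.2, 21.25 and 30.6 CPM in uninduced libraries. These groups did not overlap either, with the lowest induced library above the highest uninduced one. The fold was 1.35, with a 95% interval of 1.02 to 1.78 (log2 0.43 ± 0.19 SE), at an unadjusted p = 0.0387 and an edgeR adjusted p = 1. No member was called on WT induction, where 0.00872% of all genes tested were called. NUAK1 was the only member with an unadjusted p under 0.05 there, where 1.7% of all genes had one, and DESeq2 and limma-voom called no member either. The induction effect was not shown to differ between the lines: the log2 difference, S222A minus WT, was 0.38 ± 0.26 SE, a ratio of folds with a 95% interval of 0.883 to 1.92 (edgeR adjusted p = 0.896). No member was called for such a difference, and none had an unadjusted p under 0.05 by edgeR, against 6.68% of all genes. DESeq2 and limma-voom called none, and 0.0784% of all genes tested were called by edgeR.

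NUAK1 was also higher in S222A than in WT cells under doxycycline, at a mean of 63.2 ± 9.03 CPM in S222A induced and 34.2 ± 1.58 CPM in WT induced libraries (SD, n = 3 each). The fold was 1.85, with a 95% interval of 1.42 to 2.43 (log2 0.89 ± 0.18 SE, edgeR adjusted p = 0.0119). This was 1 of 9 members called between the induced lines, where 6.34% of all genes tested were called. The call was lost without WT induced replicate 3 (adjusted p = 0.0592) and without S222A induced replicate 1 (adjusted p = 0.0597). Before induction the means were 36.2 ± 3.18 CPM in S222A and 25.4 ± 4.8 CPM in WT libraries. Every S222A uninduced library stood above every WT uninduced one, with a fold of 1.42 and a 95% interval of 1.07 to 1.89. That difference was not called (log2 0.51 ± 0.19 SE, unadjusted p = 0.018, edgeR adjusted p = 0.512). Between the uninduced lines no member was called, against 0.392% of all genes tested. NUAK1 and SNRK were the members with an unadjusted p under 0.05 there, against 7.48% of all genes, and DESeq2 and limma-voom also called none. The 4 comparisons share groups and are not independent of each other.

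**Figure D1:**
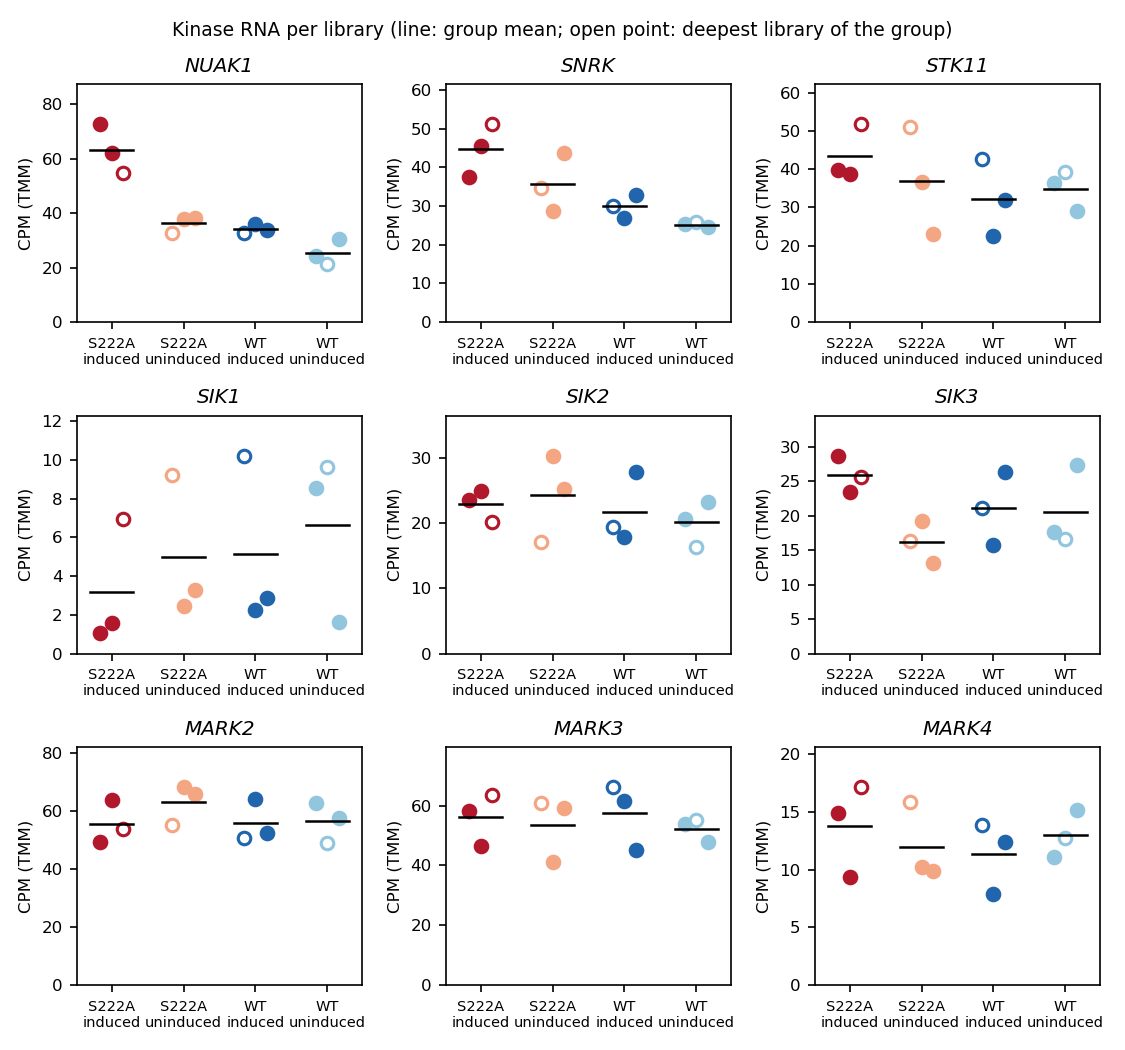
Level in CPM (TMM scaled) of each of the 9 tested kinases in every library, 1 panel per gene, with points for single libraries (open for the deepest of each group) and a line for the group mean, S222A induced, S222A uninduced, WT induced and WT uninduced from left to right. NUAK1 is separated between all pairs of groups compared, at 54.8 to 72.7 CPM in S222A induced libraries, while the SIK1 points within each group lie far apart.

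SNRK, an AMPK-related kinase studied in fat, heart and blood cells, followed the same order of groups as NUAK1 with smaller differences, none of them called. It stood at 37.4, 45.5 and 51.2 CPM in S222A induced libraries and at 34.7, 28.7 and 43.8 CPM in S222A uninduced libraries. In the WT line it stood at 30.1, 26.9 and 32.9 CPM in induced libraries and at 25.2, 25.9 and 24.5 CPM in uninduced libraries. The S222A groups overlapped with each other and the WT groups did not, the WT induced libraries being the higher ones. On S222A induction the fold was 1.28 (95% interval 0.969 to 1.7, edgeR adjusted p = 0.331), and on WT induction it was 1.2 (0.899 to 1.61, adjusted p = 1). Between the lines the S222A libraries were all above the WT libraries, with and without doxycycline. The fold was 1.48 between the induced lines (95% interval 1.12 to 1.96, log2 0.57 ± 0.19 SE, edgeR adjusted p = 0.0939). It was 1.39 between the uninduced lines (1.04 to 1.86, log2 0.47 ± 0.19 SE, adjusted p = 0.61). With a term for the deepest libraries, chosen with earlier results of these data known, SNRK passed the threshold between the induced lines at the same log2 of 0.57 (adjusted p = 0.0157). It was not called there in any other of the 24 settings, and its log2 value was 0.44 without the deepest libraries (adjusted p = 0.304) and 0.34 with counts thinned to the smallest library (0.523). Groups that did not overlap, with the S222A induced libraries higher, were found for 15.2% of all genes tested between the induced lines. On WT induction such a separation upwards was found for 2.81% of all genes, and between the uninduced lines, S222A higher, for 6.24%.

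STK11, the activating kinase itself, was not called in any comparison. It stood at 39.8, 38.8 and 51.8 CPM in S222A induced libraries, against 51.05, 36.5 and 23.0 CPM in S222A uninduced libraries. It stood at 42.7, 22.4 and 31.8 CPM in WT induced libraries, against 36.3, 39.2 and 29.01 CPM in WT uninduced libraries. The groups overlapped in both lines, and the spread within the S222A uninduced group exceeded any difference between group means. The fold on S222A induction was 1.13, with a 95% interval of 0.756 to 1.7 (edgeR adjusted p = 0.804), and on WT induction the interval was 0.635 to 1.46.

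Of the SIK kinases none was called. SIK3, which in mouse cartilage acts on class IIa deacetylases and so on MEF2 factors, came nearest on S222A induction. It stood at 28.75, 23.4 and 25.7 CPM in S222A induced libraries, against 16.3, 19.3 and 13.1 CPM in S222A uninduced libraries, and the groups did not overlap. The fold was 1.56, with a 95% interval of 1.07 to 2.25 (log2 0.64 ± 0.25 SE, unadjusted p = 0.0228, edgeR adjusted p = 0.174). As given for NUAK1, 14.4% of all genes tested were separated in this direction. In the WT line SIK3 overlapped between the groups, at 15.7 to 26.3 CPM in induced and 16.6 to 27.4 CPM in uninduced libraries, with a fold interval of 0.735 to 1.55. The difference between the lines in its induction effect was a log2 of 0.55 ± 0.35 SE (edgeR adjusted p = 0.88). SIK3 was thus the second member with separated S222A groups after NUAK1, and it was not called between the induced lines (fold interval 0.829 to 1.7). The intronic transcript SIK3-IT1, whose reads may be shared with SIK3 where strand was not used in counting, had 0 to 15 counts per library.

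SIK2, a kinase that restrains CRTC coactivators and is known from fat and liver, overlapped between the groups in both lines. It ranged over 20.17 to 24.97 CPM in S222A induced, 17.2 to 30.4 CPM in S222A uninduced, 17.9 to 27.9 CPM in WT induced and 16.4 to 23.3 CPM in WT uninduced libraries. The fold interval was 0.658 to 1.41 on S222A induction and 0.756 to 1.64 on WT induction.

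SIK1, whose transcription CREB raises in response to cyclic AMP, varied most among the tested members, by 9.84 times between its highest and lowest library. It stood at 1.04, 1.56 and 6.93 CPM in S222A induced libraries, from 3, 7 and 87 counts, against 9.25, 2.46 and 3.29 CPM in S222A uninduced libraries, from 77, 6 and 3 counts. It stood at 10.23, 2.24 and 2.89 CPM in WT induced libraries, against 8.58, 9.66 and 1.63 CPM in WT uninduced libraries. In every group the deepest library was the highest one, and the groups overlapped. In the S222A induced group the exact Poisson 95% interval was 5.55 to 8.55 CPM for the deepest library and 0.628 to 3.22 CPM for replicate 2, so these libraries of 1 group differed by more than counting error. The fold on S222A induction was 0.634, with a 95% interval of 0.197 to 2.04 (log2 -0.66 ± 0.78 SE, edgeR adjusted p = 0.733). A change on this scale was not detectable for SIK1. Its direction turned on a single library: the log2 value was 0.42 without S222A uninduced replicate 1 and -2.08 without S222A induced replicate 3. SIK1B, annotated as a near-identical copy of SIK1, has no row in the count table. Reads from such a copy, if there were any, could not be told apart from those of SIK1.

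None of the MARK kinases was called in any comparison, and MARK2 and MARK3 had the smallest ratios of highest to lowest library among the tested members, 1.39 and 1.61. MARK2, which controls cell polarity and microtubules, ranged over 49.2 to 63.8 CPM in S222A induced and 55.1 to 68.1 CPM in S222A uninduced libraries. In the WT line it ranged over 50.6 to 63.9 CPM in induced and 48.9 to 62.6 CPM in uninduced libraries. Its fold on S222A induction was 0.889, with a 95% interval of 0.688 to 1.15, and on WT induction the interval was 0.754 to 1.27. The upper bounds of both lie below the fold of 1.76 measured for NUAK1 in the S222A line. MARK3, known to phosphorylate the phosphatase CDC25C, ranged over 46.6 to 63.5 CPM in S222A induced and 41.0 to 60.9 CPM in S222A uninduced libraries. Its fold intervals were 0.772 to 1.42 on S222A induction and 0.805 to 1.49 on WT induction. MARK4, a microtubule-affinity kinase of lower level, ranged over 9.36 to 17.1 CPM in S222A induced and 9.86 to 15.9 CPM in S222A uninduced libraries. Its intervals were wider, at 0.712 to 1.71 on S222A induction and 0.589 to 1.45 on WT induction. MARK1 had 9 counts over all libraries together, 5 of them in S222A induced replicate 3, and was not tested. Between the lines, S222A over WT, the MARK log2 differences were 0.02, -0.03 and 0.21 under doxycycline for MARK2, MARK3 and MARK4. The kinases NUAK2 and NIM1 (now NIM1K), relatives outside the set, had 2 and 8 counts in all.

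**Figure D2:**
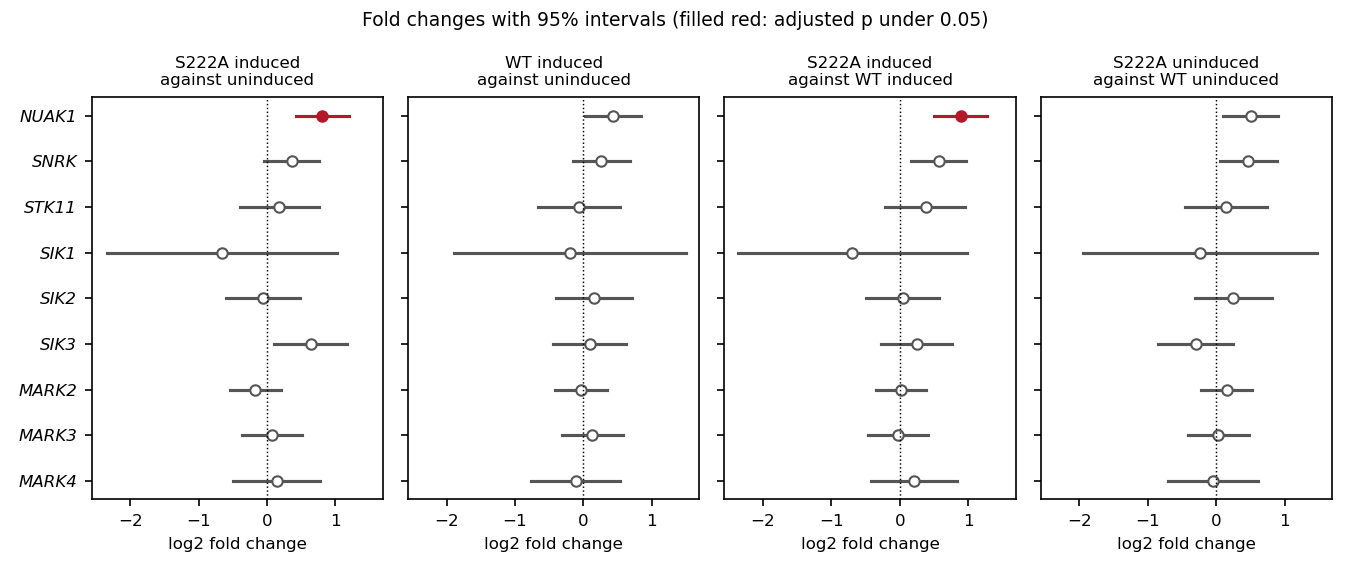
Log2 fold change of each tested kinase with its 95% interval, 1 panel for each induction and each comparison of the lines, with filled red symbols for values called at an edgeR adjusted p under 0.05. NUAK1 is filled on S222A induction (log2 0.81) and between the induced lines (log2 0.89), and the intervals of SIK1 are the widest.

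Over the 9 tested members the median log2 fold change on S222A induction was 0.14, with 6 of 9 positive, against a median of 0.01 over all genes tested. On WT induction it was 0.09 against 0.01, with 5 of 9 positive. Between the lines it was 0.21 under doxycycline and 0.14 without it, against 0 over all genes in both. The medians are thus much smaller than the log2 change of NUAK1 alone.

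Levels between genes were set against each other per kilobase of exon, with lengths from GENCODE release 29 on GRCh38 because the authors' annotation is not given in the sources used here. MARK2 had the highest median, at 9.16 CPM per kilobase over the 12 libraries (range 7.94 to 11.1), followed by MARK3 at 6.38 (4.62 to 7.45). These neighbours did not overlap. NUAK1 at 4.98 (3.03 to 10.4), SNRK at 4.51 (3.51 to 7.33) and STK11 at 4.36 (2.6 to 6) CPM per kilobase overlapped with each other and with MARK3, and the NUAK1 range also overlapped that of MARK2. The place of NUAK1 differed by group: it stood at 7.81 to 10.4 CPM per kilobase in S222A induced libraries, where MARK2 stood at 7.99 to 10.4 and MARK3 at 5.24 to 7.15. In the other groups NUAK1 lay below every MARK2 library, at 4.64 to 5.47 CPM per kilobase in S222A uninduced, 4.67 to 5.12 in WT induced and 3.03 to 4.37 in WT uninduced libraries. SIK2 at 2.24 (1.68 to 3.1), MARK4 at 1.88 (1.18 to 2.57) and SIK3 at 1.85 (1.2 to 2.63) CPM per kilobase overlapped with each other, and SIK2 reached into the lower end of the STK11 range. SIK1 followed at 0.587 (0.197 to 1.94), its upper end within the SIK3 range, and MARK1 had a median of 0. The ratio of highest to lowest library was 3.42 for NUAK1, the second largest after SIK1.

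SIK1, STK11 and MARK3 were each highest in the deepest library of every group. A coefficient for that split, chosen after seeing the data and fitted beside the group means, was called for 4 of the 9 members, against 38.4% of all genes tested. SIK1 was higher in the 4 deepest libraries, at 6.93 to 10.23 CPM against 1.04 to 8.58 CPM in the other 8 (3.27-fold, log2 1.71 ± 0.3 SE, edgeR adjusted p = 0.000109). STK11 was higher in them too, at 39.2 to 51.8 CPM against 22.4 to 39.8 CPM (1.39-fold, adjusted p = 0.00351), and so was MARK3, at 55.2 to 66.2 CPM against 41.0 to 61.7 CPM (1.22-fold, adjusted p = 0.0482). SIK2 was lower, at 16.4 to 20.2 CPM against 17.9 to 30.4 CPM (0.741-fold, adjusted p = 0.0157). The pattern of SIK1, STK11 and MARK3, highest in the deepest library of all 4 groups, was seen for 17.4% of all genes tested. Of 12 tested CREB-related genes, 4 were higher in the deepest libraries, 3 were lower and 5 were not called. Those higher were CRTC2, ATF1 and the CREB targets FOS (15.8 to 57.1 CPM against 5.61 to 33.45 CPM, adjusted p = 0.000129) and JUNB (249.93 to 292 CPM against 86.3 to 216 CPM, adjusted p = 8.81e-05). The factor CREB1 (0.794-fold, adjusted p = 0.0139) and the coactivators CREBBP (0.756-fold, 0.00667) and EP300 (0.674-fold, 9.94e-05) were lower. The other tested CREB targets, NR4A2 and PER1, were among those not called. NUAK1 was the lowest in the deepest library of all 4 groups, but its coefficient was not called (log2 -0.24 ± 0.11 SE, adjusted p = 0.0827). The share of all genes that were lowest in this way was not computed, so how common the pattern is cannot be said. Its log2 change on S222A induction was 0.74 in the deepest libraries alone and 0.81 in the other 8, and on WT induction 0.61 and 0.35. SIK3 had log2 values of 0.64 and 0.69 on S222A induction in the same order, while STK11 had 0.02 and 0.43. What sets the deepest libraries apart was not tested.

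**Figure D3:**
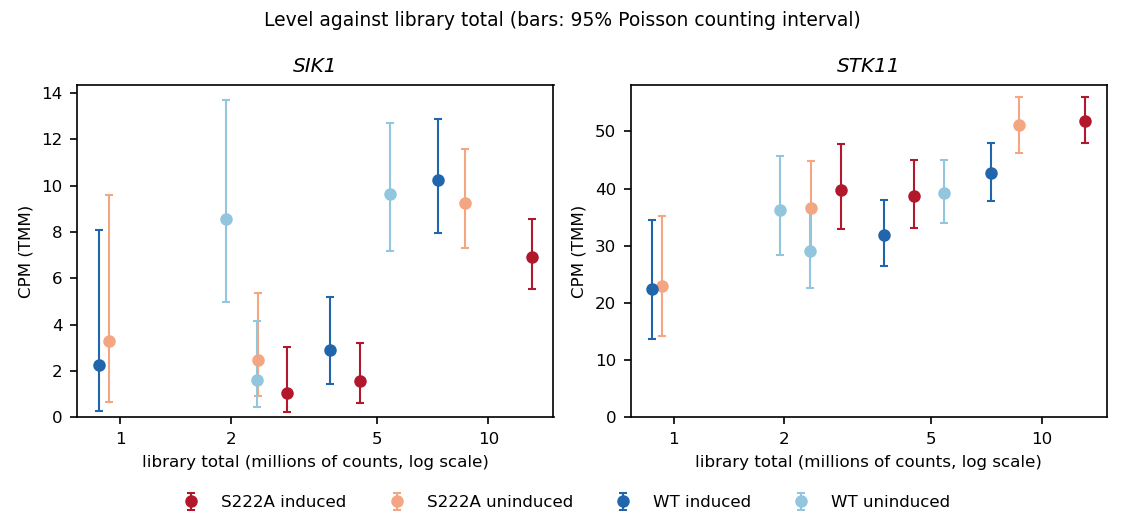
CPM of SIK1 and STK11 against the library total on a log axis, with 1 point per library, bars for the exact Poisson 95% counting interval and colours for the 4 groups. Both are highest in the deepest library of each group, at 6.93 to 10.23 CPM for SIK1 and 39.2 to 51.8 CPM for STK11.

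Around the kinases, 107 genes in 11 lists of partners, substrates and opposing pathways were followed, of which 68 were tested. On S222A induction 4 rose and none fell, which is 5.88% against the 4.45% of all genes tested, with a median log2 fold change of 0.2 against 0.01. ADCY9, an adenylyl cyclase that makes cyclic AMP, stood at 79.3, 54.6 and 58.3 CPM in S222A induced libraries, against 19.7, 23.4 and 12.05 CPM in S222A uninduced libraries. The fold was 3.32 (log2 1.73 ± 0.24 SE, edgeR adjusted p = 0.00163). PRKACB, a catalytic subunit of protein kinase A, stood at 54.4, 66.2 and 41.7 CPM in S222A induced libraries, against 22.2, 28.3 and 30.7 CPM in S222A uninduced libraries (fold 2.04, adjusted p = 0.0318). Neither gene overlapped between these groups. HDAC9, a class IIa deacetylase, averaged 59.5 ± 4.46 CPM in S222A induced and 32.7 ± 8.7 CPM in S222A uninduced libraries (fold 1.88, adjusted p = 0.0137). CAMKK2, a calcium-dependent kinase that like STK11 can activate AMPK, averaged 214 ± 35 CPM in S222A induced and 124 ± 36.1 CPM in S222A uninduced libraries (fold 1.75, adjusted p = 0.0422). The calls of the last 3 were lost with some single libraries left out, while the direction held. Their log2 values were then 0.86 to 1.2 for PRKACB, 0.79 to 1.1 for HDAC9 and 0.66 to 1.04 for CAMKK2. HDAC9 and CAMKK2 lost their calls without S222A uninduced replicate 1 or 2 or S222A induced replicate 1 or 2, at adjusted p up to 0.0729 and 0.16. CAMKK2 also lost its call without WT uninduced replicate 1 (0.0587) or WT induced replicate 3 (0.0591). PRKACB lost its call without S222A uninduced replicate 1, 2 or 3 or S222A induced replicate 1 or 2, at adjusted p up to 0.129. ADCY9 was called with any 1 of the 12 libraries left out.

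List by list on S222A induction, called members were 2 of 10 tested genes of cyclic AMP and protein kinase A and 1 of 7 class IIa deacetylases and corepressors. In the list of other kinases of these deacetylases 1 of 8 was called, the upstream kinase CAMKK2. PRKD2, PRKD3, CAMK1D, CAMK2B, CAMK2D and CAMK2G of that list were not called. No member was called among 3 STK11 complex partners (median log2 0.37), 4 AMPK subunits (0.31), 3 further AMPK-related kinases (-0.21), 6 14-3-3 proteins (-0.26) or 3 MEF2 factors (0.34). Likewise none was called among 8 CRTC and CREB genes (0.19), 4 CREB targets (0.3) and 12 regulators, partners and substrates of MARK kinases (0.2). The STK11 partners tested had log2 0.37 ± 0.26 SE for the pseudokinase STRADB, 0.27 ± 0.22 for the scaffold CAB39 and 0.8 ± 0.43 for its relative CAB39L. Each of them overlapped between the S222A groups. Nearest to the threshold in the MARK list were GSK3B, a kinase acting on tau and on MARK2 (log2 0.51, edgeR adjusted p = 0.0717), and ARHGEF2, a microtubule-bound exchange factor (log2 0.59, adjusted p = 0.0783). The class IIa deacetylases besides HDAC9 were not called and did not share a direction. HDAC5 had log2 0.94 (adjusted p = 0.168), HDAC7 0.2 (0.891) and HDAC4 -0.55 (0.46). Each of them overlapped between the S222A groups. On WT induction, for the difference of induction effects and between the uninduced lines none of the 68 genes was called by edgeR, DESeq2 or limma-voom. At an unadjusted p under 0.05 stood 0, 6 and 2 of them in these comparisons.

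Between the induced lines 5 of the 68 genes were called, which is 7.35% against 6.34% of all genes tested. ADCY9 was higher in S222A cells, at 64.1 ± 13.3 CPM in S222A induced and 22.1 ± 2.47 CPM in WT induced libraries (SD, n = 3 each, fold 2.95, edgeR adjusted p = 0.00268). CAMKK2 was higher as well, at 214 ± 35 CPM in S222A induced and 105 ± 1.22 CPM in WT induced libraries (fold 2.03, adjusted p = 0.0112). The 3 lower genes were 1 of 6 tested 14-3-3 proteins and 2 of 12 tested regulators, partners and substrates of MARK kinases. YWHAE, 14-3-3 epsilon, averaged 268 ± 11 CPM in S222A induced and 400 ± 19.9 CPM in WT induced libraries (log2 -0.58, adjusted p = 0.0325). PRKCI, the atypical protein kinase C that phosphorylates MARK kinases at the polarity complex, averaged 26 ± 1.82 CPM in S222A induced and 40.3 ± 2.05 CPM in WT induced libraries (log2 -0.63, adjusted p = 0.045). MAPT, which encodes tau, stood at 3.12, 1.34 and 2.63 CPM in S222A induced libraries, from 9, 6 and 33 counts. In WT induced libraries it stood at 8.62, 6.73 and 8.42 CPM, from 59, 6 and 32 counts (log2 -1.78, edgeR adjusted p = 0.0344). Between the uninduced lines all 3 were also lower in S222A cells, though not called. The log2 values there were -0.32 for YWHAE, -0.32 for PRKCI and -0.41 for MAPT. On S222A induction they were -0.23, -0.13 and -0.67 in the same order, not called either. PRKCI and MAPT lost their calls without any 1 of the 6 libraries compared, and YWHAE without any of them except WT induced replicate 1, at adjusted p up to 0.157, 0.134 and 0.141. All 3 also lost theirs without WT uninduced replicate 1 (0.0626, 0.052 and 0.0511 for PRKCI, MAPT and YWHAE), PRKCI without S222A uninduced replicate 1 (0.0516) and YWHAE without S222A uninduced replicate 2 (0.0519). CAMKK2 lost its call without WT induced replicate 3 (0.053) or S222A induced replicate 1 (0.0527).

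**Figure D4:**
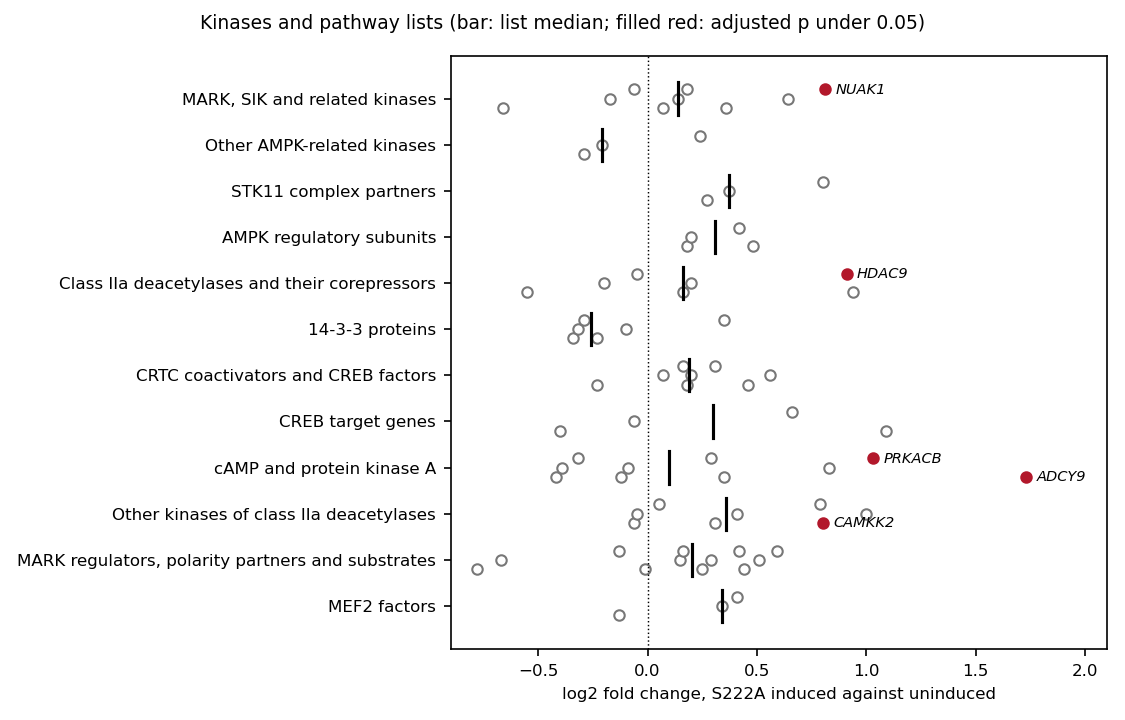
Log2 fold change on S222A induction of the 9 tested kinases (top row) and of every tested gene of the 11 partner, substrate and pathway lists, 1 row per list, with filled red points for called genes and a bar for the list median. Outside the kinases, ADCY9 (log2 1.73), PRKACB (1.03), HDAC9 (0.91) and CAMKK2 (0.8) are called, and the list medians lie between -0.26 and 0.37.

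The genes with levels most like those of NUAK1 over the 12 libraries, among 8844 with a mean of at least 3 log2 CPM, were LRRFIP2, BTG2 and AP1S2. Their Pearson r with NUAK1 was 0.96, 0.95 and 0.95, given as a description, since the libraries share their groups and depth split. BTG2, which restrains proliferation and is a target of p53, was called on S222A induction (log2 2.73, edgeR adjusted p = 5.99e-06) and on WT induction (log2 1.47, adjusted p = 0.0498), the WT call being lost with any 1 of the 12 libraries left out. LRRFIP2 and AP1S2, whose changes were smaller, were not called on S222A induction (log2 0.48 and 0.29, adjusted p = 0.0868 and 0.278).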

How the data were processed

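RNA of 12 OCI-AML2 libraries was analysed from 1 table of raw counts per gene symbol that the authors deposited, whole numbers with no normalization. The submitters' processing notes name build hg19 with STAR 2.4, HTSeq 0.6.1 and DESeq2. How the tools were used, the strand setting and the annotation were not stated in the sources at hand. A TruSeq RNA kit was used for the libraries, according to the labels' protocols. Table columns were matched to samples by names equal to the sample descriptions. No library was counted as a duplicate, since the chi-square per degree of freedom between libraries of a group was 2.79 to 39.6.

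Genes were kept by filterByExpr (minimum count 10), which left 11474 genes with 99.47% of counts; 24318 genes had no count. The model had a mean for each of the 4 groups, 8 residual degrees of freedom and a biological coefficient of variation of 24.8%, and was fitted to all 12 libraries by edgeR 4.0.16 in R 4.3.3, with TMM factors and robust quasi-likelihood F tests, two-sided. Benjamini-Hochberg adjustment covered all genes tested, with calls at an adjusted p under 0.05. The SE of a log2 fold change was derived from its size and its F statistic. There were 5 comparisons. Alternatives were other normalization factors and filters, only the groups compared, DESeq2 1.42.0, limma-voom (limma 3.58.1), thinned counts, a replicate block, a term for or omission of the deepest libraries, and each library left out. Scripts were tested on simulated data.

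The members and lists were chosen with earlier results of these data known. Named genes are all members, MEF2C, pathway genes called in any comparison, up to 6 per list and comparison by smallest adjusted p, and the 3 genes most correlated with NUAK1. Pathway genes that were not called, and single markers, were named outside this rule. The CREB-related genes in the deepest libraries were named after their values were seen. Promoters came from RefSeq on GRCh38.p14 and motifs were found with Python 3.11.15; the MEF2 consensus was searched on both strands.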

Additional observations from a re-analysis of the deposited data

How the results depend on the processing

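NUAK1 kept its direction in all alternatives. On S222A induction its log2 value was 0.7 to 1.03 over 24 settings, and it was called in 19. The number of members called was 1, with 0 to 1 when 1 library was left out and 0 with a replicate block (NUAK1 adjusted p = 0.0722). It was called by DESeq2 (0.0037) and limma-voom (0.0152). Between the induced lines NUAK1 had log2 0.78 to 1.04 and was called in 22 of 24 settings. The number of members called was 1, with 0 to 1 when 1 library was left out and 2 with the term for the deepest libraries, which added SNRK (adjusted p = 0.0157). In the other 3 comparisons 0 members were called in all alternatives run. Of 942 alternative values of members not called in the reported tests, 1 was called. Whether the replicate numbers pair the libraries is not stated. Of 12 same-numbered pairs, 4 had a correlation of deviations over 0.1 (range -0.531 to 0.323). The deepest libraries never shared a number between the groups compared, so these correlations cannot show whether the libraries were paired. ADCY9 was called in 24 of 24 settings in both comparisons.

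All genes called on S222A induction numbered 511, against 235 with the replicate block, 2052 with the term for the deepest libraries and 187 to 580 with 1 library left out. They numbered 727 between the induced lines (321 to 2480, and 249 to 891 with 1 library left out), 9 for the difference of effects (0 to 147), 45 between the uninduced lines (9 to 218) and 1 on WT induction (0 to 6). Of the 68 pathway genes 4 were called on S222A induction (1 to 13) and 5 between the induced lines (1 to 17). With the term for the deepest libraries, ADCY9 (adjusted p = 0.0423) and CAMKK2 (0.0241) were called for the difference of effects. Without a filter the median log2 value of all genes shifted by 0.114 on S222A induction, 0.12 for the difference and 0.111 between the induced lines. For the difference a fit on only the groups compared was not run, since it needs all groups, and SIK1 fell under the filter in some settings. The causes of these shifts were not tested.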
